A study of Mus musculus with 17 samples.

Results

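Msh6, Brca1, Exo1, Blm, Rpa1, Rpa2, Timeless and Mdc1 are 8 genes of DNA repair and replication fork protection, taken by name from the 21887 protein-coding genes of the mouse gene table. Antibody signal at their gene ends was read from 15 CUT&RUN peak lists of mouse urothelium, the epithelium that lines the bladder, peeled from Stag2-WT or Stag2-KO animals (below WT and KO). All groups, WT included, were labelled as taken 1 week after TMX induction, and each condition used roughly 500000 cells. For STAG2, a subunit of cohesin, there were 2 WT and 2 KO libraries, and for LIN54, which contacts DNA for the MuvB core of the DREAM complex, 3 WT and 2 KO, all of these labelled batch 1. For p130, the pocket protein of DREAM, there were 3 WT and 3 KO libraries, where WT replicate 1 carries the label batch 2 and the remaining 5 the label batch 3. The labels call the libraries biological replicates. How many animals stand behind a library, their sex and age, and what drives the recombination are not given in the sources used here, and the lists do not measure whether Stag2 was deleted. The 2 samples labelled pMNase, which carry no antibody name, have no peak list and were not used here.

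DREAM holds genes of the cell cycle silent in resting cells. Its MuvB core can bind a short element called CHR, while p130 brings in E2F proteins, which bind E2F elements, and many genes of replication-coupled repair carry such elements near their starts. MSH6 recognises mismatched bases and EXO1 is the exonuclease that resects the strand. BRCA1 acts in homologous recombination, and BLM is a RecQ helicase that resolves recombination intermediates. RPA1 and RPA2 are subunits of the protein that coats single-stranded DNA. TIMELESS protects stalled forks, and MDC1 is the scaffold that binds phosphorylated H2AX at double-strand breaks. None of these functions was measured here.

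The sequences below are the RefSeq start regions (GRCm38.p6, the assembly of mm10) of the genes whose starts carried the largest signals, with Msh6 added because its signal went opposite ways with the STAG2 and LIN54 antibodies. Each runs 5′ to 3′ on the strand of its gene, from 250 bases before to 50 after the annotated start. Capitals mark E2F-like letters and the CCAAT box, on either strand. The E2F-like letters searched were TTCCCGC and its near forms, which differ in the middle: the form with TTGGCGC, then the form with TTCGCGC, and last the form with TTGCCGC. The CCAAT box was searched by the letters of its name.
Mdc1, chr17:35841248-35841547, plus strand: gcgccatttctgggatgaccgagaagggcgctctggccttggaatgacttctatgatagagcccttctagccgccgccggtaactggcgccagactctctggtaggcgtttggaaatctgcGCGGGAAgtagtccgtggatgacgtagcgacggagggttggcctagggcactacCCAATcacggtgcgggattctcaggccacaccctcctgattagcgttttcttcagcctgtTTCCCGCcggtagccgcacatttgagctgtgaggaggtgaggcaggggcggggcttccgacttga
Rpa2, chr4:132768110-132768409, plus strand: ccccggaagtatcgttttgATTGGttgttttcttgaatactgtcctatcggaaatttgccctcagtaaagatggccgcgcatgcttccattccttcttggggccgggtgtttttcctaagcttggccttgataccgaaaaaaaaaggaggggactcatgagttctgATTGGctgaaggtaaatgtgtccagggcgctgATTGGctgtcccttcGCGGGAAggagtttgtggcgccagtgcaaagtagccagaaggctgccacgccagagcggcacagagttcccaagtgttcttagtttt
Brca1, chr11:101551906-101552205, minus strand: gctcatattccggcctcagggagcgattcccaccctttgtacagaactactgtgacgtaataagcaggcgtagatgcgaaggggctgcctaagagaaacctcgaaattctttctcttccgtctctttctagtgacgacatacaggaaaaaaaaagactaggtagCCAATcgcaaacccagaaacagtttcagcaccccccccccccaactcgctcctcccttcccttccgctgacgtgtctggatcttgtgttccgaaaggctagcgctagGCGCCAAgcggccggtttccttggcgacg
Msh6, chr17:87974800-87975099, plus strand: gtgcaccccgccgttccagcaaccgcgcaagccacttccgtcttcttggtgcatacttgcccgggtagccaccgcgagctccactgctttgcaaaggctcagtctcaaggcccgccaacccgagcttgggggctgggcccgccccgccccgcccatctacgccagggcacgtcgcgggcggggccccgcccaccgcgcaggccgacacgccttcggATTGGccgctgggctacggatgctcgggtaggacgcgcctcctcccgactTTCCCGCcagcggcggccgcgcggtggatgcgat

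RefSeq start regions were given for 7 of the 8 genes, all but Exo1. The region of Timeless lies inside the gene and holds none of its 14 best summits, so its occupied end was not searched. E2F-like letters were found in 5 of the 7 (Msh6, Brca1, Blm, Rpa2 and Mdc1), beside 12.1% of the 21263 start regions of protein-coding genes. A CCAAT box was found in 6 of 7, all but Timeless, beside 38.2% of all start regions. The letters of the CHR element (TTTGAA or TTCGAA, either strand) were in 0 of 7 and in 17.6% of all, and a GC box (GGGCGG, either strand) was in 4 of 7 and in 46.2%. No E2F-like match in these genes overlapped a GC box. In Mdc1 the E2F-like letters begin 129 and 15 bases before the RefSeq start, with the CCAAT box between them, 75 bases before it. In Rpa2 they begin 37 bases before the start, behind CCAAT boxes at 231, 84 and 52 bases. The region shown for Msh6 holds 4 of the 12 best summits of that gene, and the region shown for Brca1 holds 7 of 13. These are matches of letters, and no match says only that the letters are not in that window.

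To call a gene occupied, the summit of a peak had to fall no more than 500 bp from one of its ends. Each list held 286079 to 539191 peaks on the main chromosomes with p up to 0.05, of which 316 to 25859 reached a q of 0.01, so each count is given for all deposited peaks and again for those at q 0.01. The fold of a peak is the authors' ratio, taken within 1 library, of the fragments at the summit to the local background, with 1 added to each, and it was used to describe and rank. From the fold and p, the number of fragments at every summit was recovered, and the genome background, which follows depth, ranged from 1.28 to 2.03 fragments per base. The count of peaks at q 0.01 moved with genotype, at 25859 and 13346 in STAG2-WT against 1239 and 6777 in STAG2-KO, and at 2166 to 6617 in LIN54-WT against 13044 and 15787 in LIN54-KO. The p130 lists held the fewest, 400 to 896 (WT) and 316 to 559 (KO). The share of peaks on chromosome X also moved with genotype (3.16% to 5.09% in LIN54-WT, 0.486% and 0.744% in LIN54-KO), and p130-WT replicate 1, the one library of batch 2, stood apart with 5.98% beside 0.31% to 0.465% in the other p130 lists. The part of these series-wide differences in the results below was not tested. None of the 8 genes is on X. Of the markers fixed for the tissue, 8 of 12 urothelial genes had a peak at q 0.01 in at least 1 library. The same held for 2 of 5 fibroblast, 2 of 4 smooth muscle, 1 of 5 immune and 0 of 4 endothelial genes. Among all 21887 protein-coding genes, 9039 had one. The urothelial genes had a median of 1 such library, and the most was 7, at Upk2, a uroplakin.

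Across the 15 lists, the 8 genes had a peak at a gene end in 104 of 120 gene and library combinations, and 48 of these reached q 0.01. Mdc1 and Rpa2 had one in all 15 libraries, 2 of 8 genes beside 1.92% of all genes. Counting any base of a peak in the window added Brca1 (3.50% of all genes), and at q 0.01 none of the 8 was marked in all 15 (0.142%). Timeless had a peak in 14 libraries, Brca1 and Rpa1 in 13, Msh6 and Blm in 12 and Exo1 in 10. At q 0.01 the order was Mdc1 in 13 libraries, Rpa2 in 10, Brca1 in 8, Timeless in 6, Msh6 in 4, Blm and Rpa1 in 3 and Exo1 in 1. The median was 13 libraries with a peak and 5 at q 0.01 for the 8 genes, and 6 and 0 for all protein-coding genes. Among the 7 genes with a known strand, 90 of the 94 best peaks (1 per gene and library) lay at the 5′ end, a share of 95.7% beside 75.5% for all genes with a strand in the table. Counting every summit in the window, weaker ones included, 95 of 113 lay at the 5′ end and 18 at the 3′ end. Since the cells were measured in bulk, occupancy in fewer cells and lower occupancy per cell cannot be told apart. Fragments at the summits ranged from 5 to 129, and at the low end a missing peak means only that none was detectable at that depth.

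**Figure D1:**
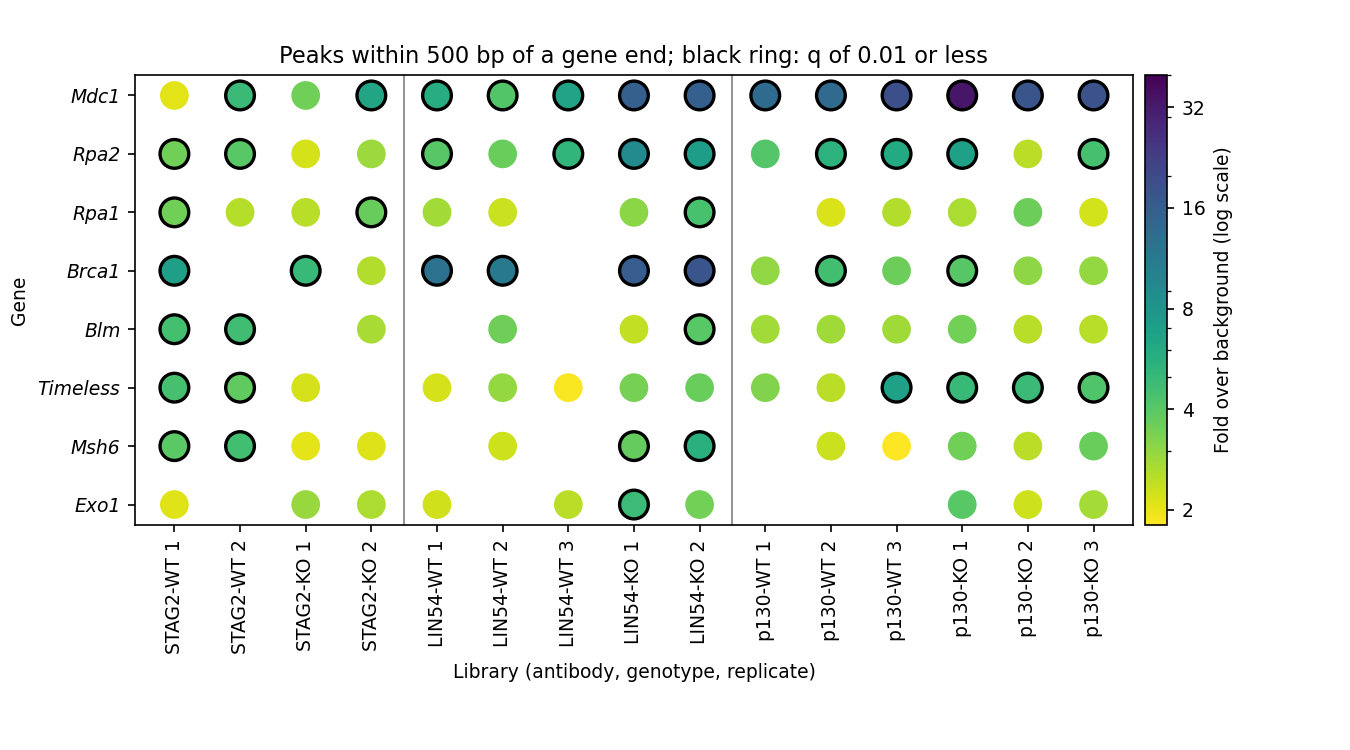
Fold over background (colour, log scale) at the best peak within 500 bp of either end of each of the 8 genes (rows) in each of the 15 libraries (columns), with a black ring where q was 0.01 or less and a blank where no summit lay in the window. Mdc1 and Rpa2 have a point in every library, and the darkest point is Mdc1 in p130-KO replicate 1, at 33.7.

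Mdc1 (chr17:35841495-35859670, plus strand) carried the largest fold among the 8 genes. With the p130 antibody its folds were 13.6, 13.8 and 18.9 in WT replicates 1 to 3 and 33.7, 17.6 and 18.3 in KO. These rest on 86, 81 and 87 fragments in WT and 129, 72 and 72 in KO. Within each list, Mdc1 ranked among the 5 strongest gene ends: 4th of 9829, 2nd of 10199 and 5th of 8316 occupied genes in the WT libraries, and 1st of 7535, 4th of 7823 and 3rd of 7306 in KO. The 2 genotypes overlapped in fold, since WT replicate 3 lay above KO replicates 2 and 3, and the means were 15.4 ± 2.98 (SD, n = 3) for WT and 23.2 ± 9.08 (SD, n = 3) for KO. One library, KO replicate 1, was higher than the other 5. Fragments in KO replicates 2 and 3 were fewer than in each WT library, and their background of 3.14 and 2.98 was also below the 5.39, 4.93 and 3.66 of WT.

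With the LIN54 antibody the Mdc1 folds were 5.77, 4.16 and 6.60 in WT and 15.8 and 15.9 in KO. The groups did not overlap, at 5.51 ± 1.24 (SD, n = 3) and 15.8 ± 0.0702 (SD, n = 2). KO was likewise above WT in 46.1% of the genes with a peak in every LIN54 library. Both parts of the ratio moved: 32, 27 and 35 fragments in WT stood against 57 and 58 in KO, while the local background was 4.72, 5.73 and 4.46 in WT and 2.68 and 2.72 in KO. The genome background was alike in both genotypes (1.41, 1.28 and 1.46 against 1.43 and 1.34 fragments per base). With the STAG2 antibody the folds were 2.08 and 4.91 in WT and 3.53 and 6.46 in KO, so the genotypes overlapped. The lowest of these, in WT replicate 1, came with the highest local background of the 15 libraries, 7.18 fragments under 16 at the summit. All 15 summits of Mdc1 lay between 129 bp before and 19 bp after the annotated start, and the 6 of p130 fell within 32 bp of each other, 82 to 50 bp before it. In the sequence above, 13 of the 15 lay within 50 bp of the CCAAT box. For the E2F-like letters at 129 and 15 bases these were 9 and 5, and a summit can count for more than 1 element.

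**Figure D2:**
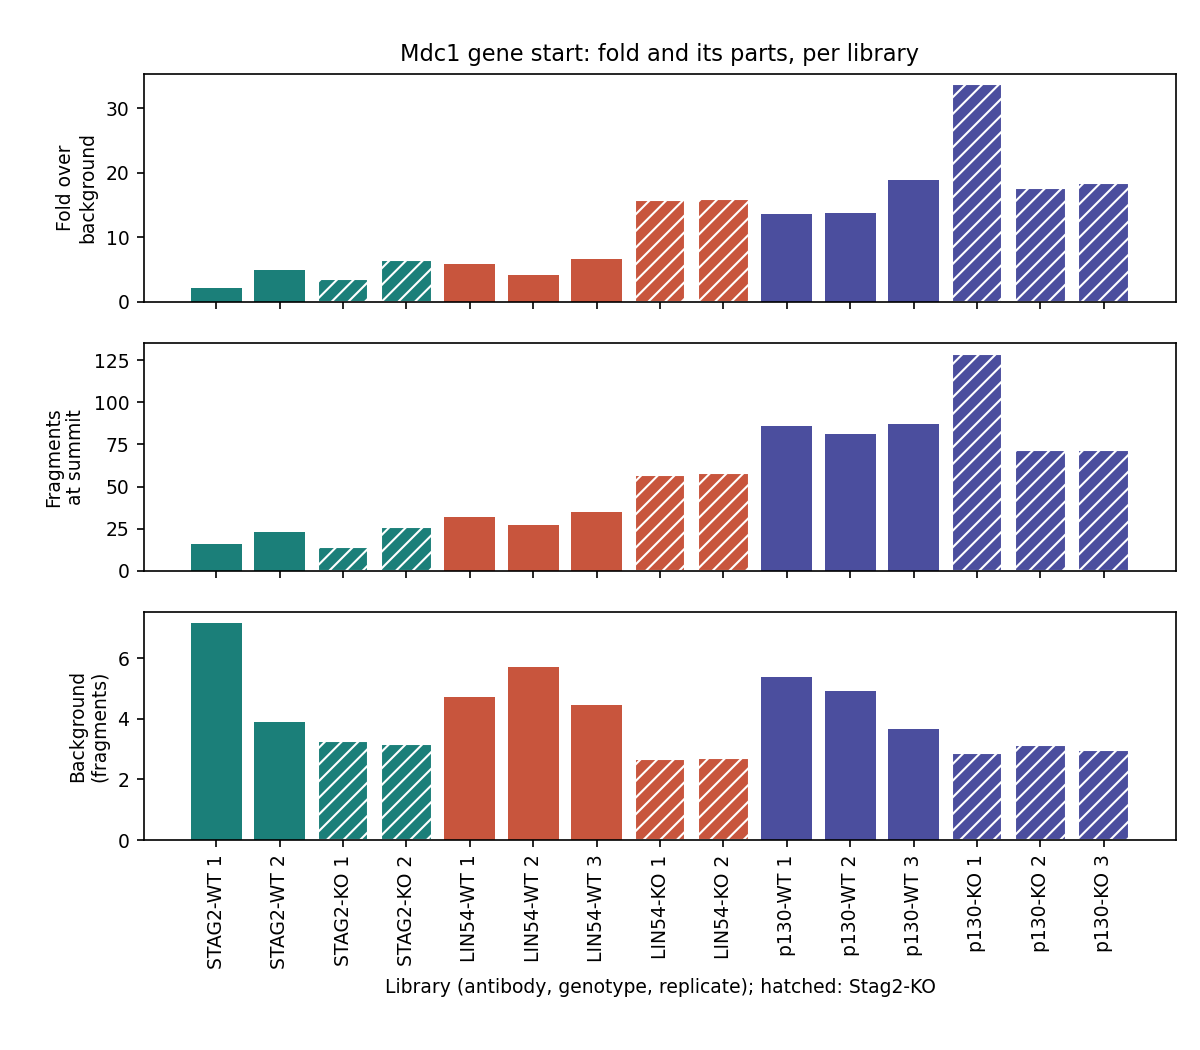
Fold over background at the Mdc1 start (top), fragments at the summit (middle) and local background in fragments (bottom), 1 bar per library and hatched for Stag2-KO. Fragments run from 14 in a STAG2 library to 129 in p130-KO replicate 1, and the LIN54-KO bars combine more fragments with less background than each LIN54-WT bar.

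Rpa2 (chr4:132768360-132778746, plus strand) was, with Mdc1, the gene occupied in all 15 libraries. Its LIN54 folds were 4.10, 3.64 and 5.24 in WT and 9.13 and 7.24 in KO, with 16, 10 and 14 fragments against 27 and 21. Both KO libraries were above all 3 WT libraries, at 8.18 ± 1.34 (SD, n = 2) and 4.33 ± 0.824 (SD, n = 3). Of the genes with a peak in every LIN54 library, 46.1% had this order. Its STAG2 folds went the other way, 3.52 and 4.02 in WT against 2.21 and 2.87 in KO, again without overlap. Of the genes with a peak in every STAG2 library, 54.4% did so. The STAG2 fragments did overlap, at 10 and 10 in WT and 7 and 14 in KO. Their local background was 2.12 and 1.74 in WT and 2.62 and 4.22 in KO. With p130 the folds were 4.13, 5.48 and 6.11 in WT and 6.90, 2.47 and 4.50 in KO, and the genotypes overlapped. In 5 of these 6 p130 lists Rpa2 stood in the top 1.33% to 2.9% of occupied genes, and in KO replicate 2 at 34.0%, on 9 fragments. Of the 15 summits, 14 lay 196 to 56 bp before the start, within the sequence shown above, and 9 of them lay within 50 bp of the CCAAT box at 84 bases. The remaining summit, in STAG2-WT replicate 1, lay 123 bp after the start. Of the 14, 6 and 2 lay within 50 bp of the CCAAT boxes at 52 and 231 bases, and 4 within 50 bp of the E2F-like letters.

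Rpa1 (chr11:75300259-75348454, minus strand), which encodes the large subunit of the same protein, was weaker. The STAG2 folds were 3.54 and 2.53 in WT and 2.50 and 3.68 in KO. With LIN54 they were 2.78 and 2.32 in WT replicates 1 and 2, none in replicate 3, and 3.10 and 4.45 in KO. With p130 they were 2.15 and 2.59 in WT replicates 2 and 3, and 2.66, 3.63 and 2.24 in KO. Every fold lay under 4.5, and the genotypes overlapped with STAG2 and p130. Both LIN54-KO folds were above the 2 of WT. In WT replicate 1 the best peak lay at the 3′ end, 499 bp from it and so just inside the window, beside another there of fold 2.75 at 418 bp. In p130-WT replicate 1 a summit 555 bp into the gene, with a fold of 1.73, lay just outside. The start of Rpa1 lies 21 bp inside an end of Smyd4, a methyltransferase gene, and signal at the 2 ends cannot be told apart.

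Brca1 (chr11:101488761-101551955, minus strand) had the highest LIN54 folds of the 8 genes in the 4 LIN54 libraries where a summit lay in its window. Its LIN54 folds were 12.6 and 11.5 in WT replicates 1 and 2 and 16.3 and 17.6 in KO, on 36, 32, 49 and 52 fragments. No summit lay in the window in WT replicate 3, where a single peak over the start had its summit 818 bp upstream with a fold of 8.71. Counting that peak, each KO fold was above each WT fold, as in 45.4% of the genes with a peak over the window in all 5 LIN54 libraries. The STAG2 folds were 7.07 in WT replicate 1 and 4.97 in KO replicate 1. The other 2 STAG2 libraries had their strong peak just outside the window, with folds of 5.58 (782 bp upstream) in WT and 6.17 (843 bp upstream) in KO, and in KO replicate 2 the best peak inside the window was one of fold 2.56 at the 3′ end, beside a weaker one of fold 1.77 at 370 bp into the gene. The p130 folds were lower and overlapped between genotypes, 3.02, 4.58 and 3.63 in WT and 4.06, 3.04 and 2.99 in KO. In p130-WT replicates 1 and 2 a further summit lay outside the window, 816 and 712 bp upstream. These had folds of 3.11 and 3.52 on 11 and 17 fragments, beside 9 and 13 fragments inside it. The near end of Nbr1, an autophagy receptor gene, is 152 bp away, so signal at the 2 gene ends cannot be told apart here. The LIN54 summits within the window lay 337 to 238 bp before the Brca1 start, beyond the near end of Nbr1. The median p130 summit within the window lay at −87.5 bp, nearer to that start.

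Timeless (chr10:128232063-128252941, plus strand) was occupied in 14 of 15 libraries. Its p130 folds were 3.22, 2.48 and 6.79 in WT and 4.92, 4.90 and 4.22 in KO. All 3 KO libraries and 1 of 3 WT libraries reached q 0.01, but the highest fold was in WT, and the genotypes overlapped. With STAG2 the folds were 4.50 and 3.84 in WT, 2.21 in KO replicate 1, and none in KO replicate 2. With LIN54 they were low, at 2.20, 2.98 and 1.86 in WT and 3.45 and 3.65 in KO, and none reached q 0.01. The KO values lay above the WT values, each on 9 fragments against 5 to 8. The near end of Mip, the gene of a lens water channel, is 251 bp away, and the long noncoding RNA gene Gm26847 overlaps the start. The RefSeq start region given for Timeless begins inside the gene and holds none of its 14 summits, so its sequence is not shown.

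Msh6 (chr17:87975050-87990892, plus strand) differed in direction between antibodies. Its STAG2 folds were 3.98 and 4.62 in WT, both past q 0.01, and 2.03 and 2.12 in KO, neither past it. The best peak of KO replicate 2 lay at the 3′ end, beside one of fold 2.01 at 333 bp before the start. A stronger one, of fold 3.63 and also short of q 0.01, had its summit 630 bp into the gene, outside the window. With LIN54 there was no start peak within the window in WT: replicates 1 and 2 had summits 531 and 560 bp upstream with folds of 2.27 and 2.42, and replicate 2 counts as occupied only through a peak of fold 2.28 at the 3′ end, where the gene overlaps Fbxo11. In KO the LIN54 folds were 3.77 and 5.56, 267 and 225 bp upstream, both past q 0.01. The STAG2 signal was thus the higher one in WT and the LIN54 signal the higher one in KO, on 6 to 15 fragments. With p130 the folds were 2.32 and 1.82 in WT replicates 2 and 3 and 3.52, 2.47 and 3.68 in KO, and none reached q 0.01. The p130 summits lay 134 and 361 bp before the start in WT and 42 to 150 bp after it in KO.

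Blm (chr7:80454993-80535148, minus strand) had all 12 of its best peaks at the start, from 251 bp before to 5 bp after it. The STAG2 folds were 4.57 and 4.68 in WT, none in KO replicate 1 and 2.71 in KO replicate 2. With LIN54 there was 1 fold of 3.55 in WT replicate 2, and 2.39 and 4.03 in KO. The p130 folds were 2.76, 2.79 and 2.79 in WT and 3.48, 2.52 and 2.51 in KO, on 9 to 11 fragments each. WT was thus above KO with STAG2 in the libraries that had a peak, and the genotypes overlapped with LIN54 and p130. Both STAG2-WT libraries and LIN54-KO replicate 2 reached q 0.01.

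Exo1 (chr1:175880768-175911396, no strand given in the tables used) had the fewest peaks of the 8 genes. With p130 it had no summit in the window in the 3 WT libraries and folds of 4.02, 2.28 and 2.74 in KO, on 10, 6 and 7 fragments. None of these reached q 0.01. With STAG2 the folds were 2.08 in WT replicate 1, none in replicate 2, and 2.92 and 2.63 in KO. With LIN54 they were 2.25 and 2.49 in WT replicates 1 and 3, none in replicate 2, and 4.85 and 3.47 in KO, the higher of which is the one Exo1 peak at q 0.01. The KO folds thus lay above those of WT with STAG2 and LIN54 where there were any, but the fragments did not. With STAG2 there were 9 fragments in WT and 8 and 8 in KO, over a background of 3.8 against 2.08 and 2.42. With LIN54 there were 5 and 9 in WT and 12 and 8 in KO. The LIN54 peak of WT replicate 1 lay at the higher-coordinate end, and those of KO at the lower. All but 1 of the 10 best peaks lay at the lower-coordinate end, 414 to 51 bp outside the gene, next to the long noncoding RNA gene Gm36360, 13 bp away.

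**Figure D3:**
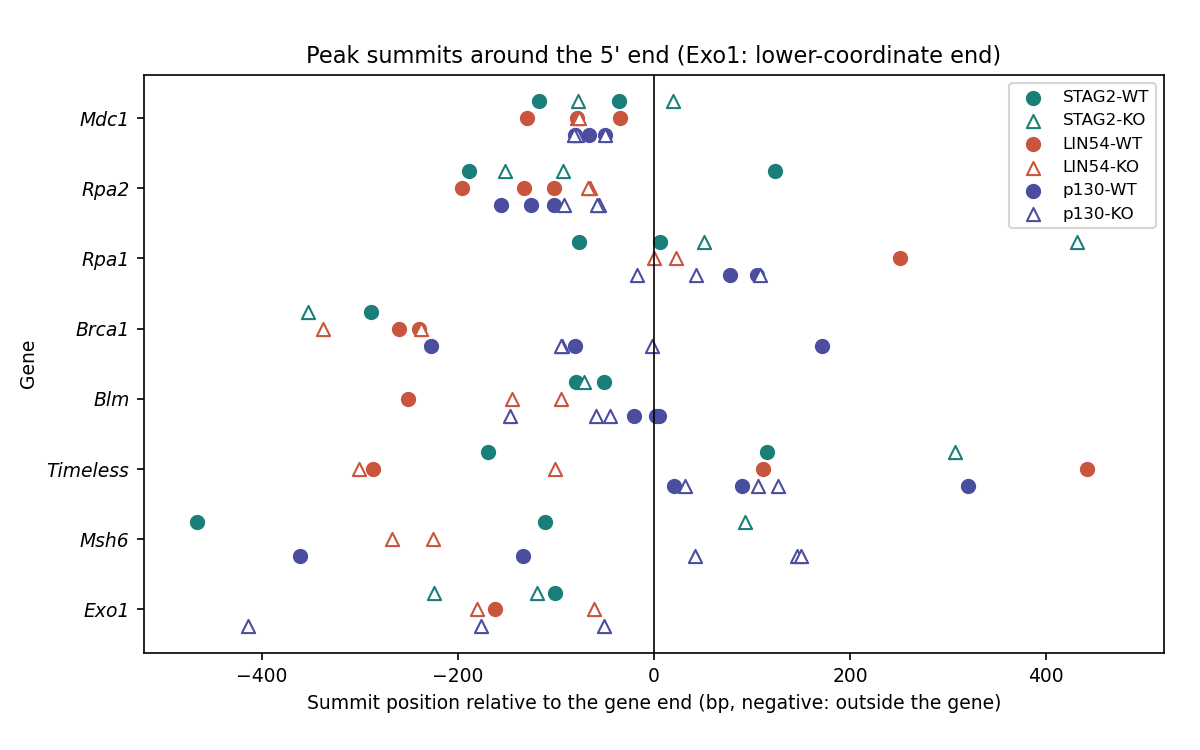
Distance in bp from the annotated 5′ end (Exo1: lower-coordinate end) to the summit of the best peak, 1 point per library with a peak there, filled for Stag2-WT and open for Stag2-KO, coloured by antibody. Peaks at the other end of a gene are not drawn. The Mdc1 points lie between −129 and 19 bp, while those of Timeless spread from −301 to 441 bp.

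With the STAG2 antibody, which asks where cohesin with this subunit sits in WT and what signal is left in KO, 6 of the 8 genes (all but Brca1 and Exo1) had a peak in both WT libraries, beside 35.0% of all genes. In both KO libraries 6 of 8 had one (all but Blm and Timeless), beside 25.5%. None was occupied in WT alone (6.44% of all genes) or in KO alone (2.03%). At q 0.01, 4 of 8 (Msh6, Blm, Rpa2 and Timeless) had a peak in both WT libraries, beside 12.6% of genes, and 0 in both KO libraries, beside 1.90%. The same 4 genes had it in both WT and no KO library, beside 6.19% of all genes, and none in KO alone (0.0320%). Of the 4 genes with a peak in every STAG2 library, Msh6 and Rpa2 had both WT folds above both KO folds, beside 54.4% of such genes, and none the reverse (3.18%). Without KO replicate 1, 2 of 8 were marked in KO, and without KO replicate 2, 1. In the deposited lists, 2 genes were occupied in KO alone without WT replicate 1, and 1 in WT alone without either KO library. For these counts with a library left out, the share of all genes is not given here. Per library, 5.5 ± 0.707 (SD, n = 2) of the 8 genes had a peak at q 0.01 in WT and 1.5 ± 0.707 (SD, n = 2) in KO, while 23.4% ± 8.41 and 6.14% ± 5.35 of all genes had one.

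With the LIN54 antibody, which asks where the MuvB core sits, 3 of 8 genes (Rpa2, Timeless and Mdc1) had a peak in all 3 WT libraries, beside 23.8% of all genes. In both KO libraries all 8 had one, beside 35.5%. Leaving out LIN54-WT replicate 3, which had the fewest peaks at q 0.01 of that group, 5 of 8 were occupied in WT. None was occupied in WT alone (1.38%) or in KO alone (2.04%), though 2 were in KO alone without WT replicate 2. At q 0.01, Mdc1 was the single gene marked in all 3 WT libraries (4.71% of all genes), and Msh6, Brca1, Rpa2 and Mdc1 were marked in both KO libraries (15.8%). Msh6 alone had it in both KO and no WT library, beside 3.99% of genes, and none in WT alone (0.0183%). That count was 3 without KO replicate 1 and 2 without KO replicate 2, and 2 genes were marked in WT without WT replicate 2 or without replicate 3. For the counts with a LIN54 library left out, the share of all genes is not given here. Each of the 3 genes with a peak in every LIN54 library (Rpa2, Timeless and Mdc1) had both KO folds above all 3 WT folds, beside 46.1% of such genes, against 2.64% for the reverse. Per library, 2.33 ± 0.577 (SD, n = 3) of the 8 genes had a peak at q 0.01 in WT and 5.5 ± 0.707 (SD, n = 2) in KO, and 10.1% ± 3.18 and 20.8% ± 1.13 of all genes.

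With the p130 antibody, 5 of 8 genes (Brca1, Blm, Rpa2, Timeless and Mdc1) had a peak in all 3 WT libraries, beside 14.3% of all genes, and all 8 in the 3 KO libraries, beside 8.88%. Exo1 was occupied in every KO and no WT library, beside 0.854% of genes, and no gene in WT alone (2.42%). Within batch 3, without the WT library of batch 2, 7 of 8 were occupied in WT (23.4%), and Exo1 was again the one gene in KO alone (1.32%). With a window of 1000 bp, a summit of fold 1.75 in the batch 2 library ended that call for Exo1. It also ended with a window of 250 bp or when any base of a peak counted. At q 0.01, Mdc1 was marked in all 3 WT libraries (0.758% of genes), and Timeless and Mdc1 in all 3 KO libraries (0.681%), with none in WT alone (0.0228%) or in KO alone (0.00457%). Within batch 3, Rpa2 and Mdc1 were marked at q 0.01 in both WT libraries (1.09%). Without WT replicate 3, 1 gene was marked in KO alone, a count for which the share of all genes is not given here. Of the 5 genes with a peak in all 6 p130 libraries, none had folds in KO all above WT (6.44% of such genes) or the reverse (8.95%). Per library, 2.33 ± 1.15 (SD, n = 3) of the 8 genes had a peak at q 0.01 in WT and 3.0 ± 1.0 (SD, n = 3) in KO, while 2.0% ± 1.08 and 1.43% ± 0.595 of all genes had one.

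**Figure D4:**
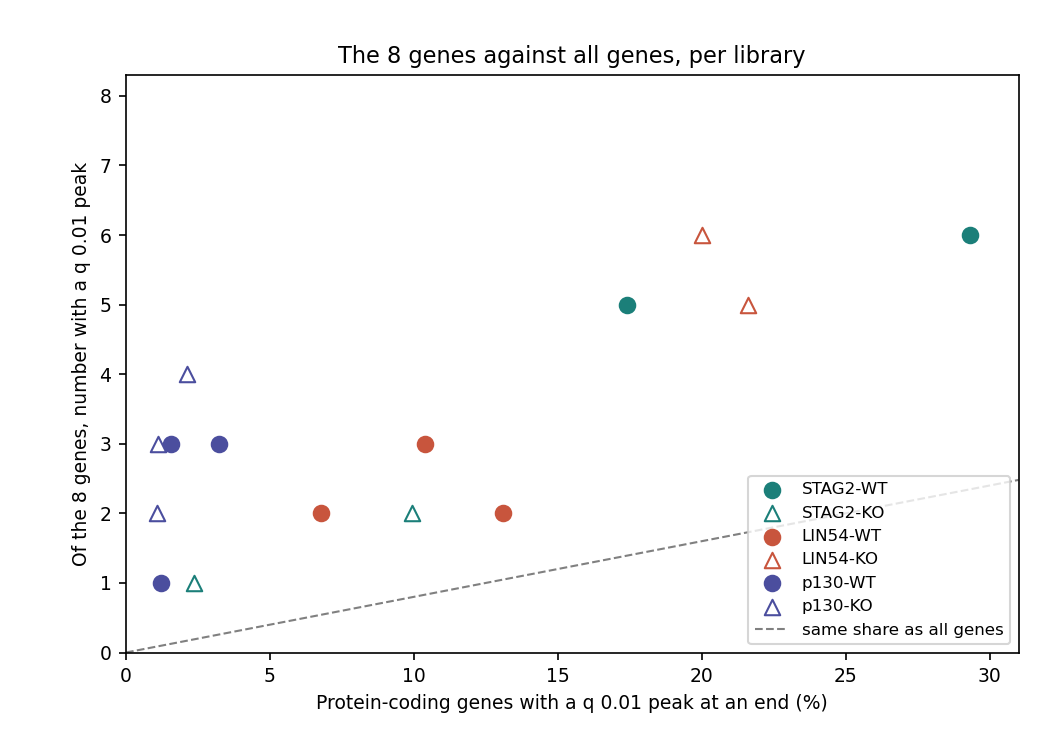
Number of the 8 genes with a peak at q 0.01 at a gene end (vertical axis) against the percentage of all protein-coding genes with one (horizontal axis), 1 point per library, filled for Stag2-WT and open for Stag2-KO. The dashed line is the number that would give the 8 genes the same share as all genes. Every library lies above it, and among STAG2 and LIN54 libraries the 8 genes are high where all genes are high.

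Whether the presence of a peak differed between genotypes was tested for all 21887 genes with a two-sided exact permutation test over libraries and Benjamini-Hochberg adjustment. So few libraries allow no p below 0.333 for STAG2 or 0.1 for LIN54 and p130, so no gene could pass 0.05, and 0 genes did, adjusted or not. Msh6, Blm, Rpa2 and Timeless at q 0.01 were at the smallest exact permutation p for STAG2 (p = 0.333, adjusted p = 1.0), a value shared by 1361 genes. Msh6 was at the smallest exact permutation p for LIN54 at q 0.01 (p = 0.1, adjusted p = 1.0), with 877 genes at that value. Exo1 was at it for p130 in the deposited lists (p = 0.1, adjusted p = 1.0, exact permutation test), with 716 genes. The order of the genotypes at these genes is therefore a description of these libraries.

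Around the 8 genes, 93 further genes of repair and fork protection in 9 lists were read in the same way. With STAG2, 59 of the 93 had a peak in both WT and 47 in both KO libraries (35.0% and 25.5% of all genes), and at q 0.01 27 and 2 (12.6% and 1.90%). With LIN54 these were 47 and 69 (23.8% and 35.5%), and at q 0.01 14 and 36 (4.71% and 15.8%). With p130 they were 40 and 25 (14.3% and 8.88%), and at q 0.01 5 and 5 (0.758% and 0.681%). In the deposited lists these genes thus had the directions of all genes, with more in WT for STAG2 and p130 and more in KO for LIN54. At q 0.01, 16 of the 93 were marked in STAG2-WT alone (6.19% of all genes) and 0 in KO alone (0.0320%). With LIN54, 0 were marked in WT alone (0.0183%) and 7 in KO alone (3.99%).

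The genes named next were taken for reaching q 0.01 in the most libraries of their list, and are not typical of it: the median was 1 library for homologous recombination, where 4 of 19 genes reached it in none, 2 for double-strand break signalling and 4 for end joining. Among genes of double-strand break signalling, H2ax, which encodes the histone that MDC1 binds, had p130 folds of 10.9 to 16.0 (WT) and 10.8 to 21.7 (KO), and reached q 0.01 in 14 of 15 libraries. Chek2, a checkpoint kinase gene, also reached it in 14, with p130 folds of 9.89 to 10.8 (WT) and 6.13 to 18.2 (KO). In both genes the p130 genotypes overlapped. Bard1, the partner of BRCA1, reached q 0.01 in 13 libraries, with p130 folds of 4.43 to 7.56 (WT) and 5.68 to 11.3 (KO) and LIN54 folds of 4.26 to 4.71 (WT) and 6.98 to 9.54 (KO). Prkdc, the kinase gene of end joining, did so in 13 libraries, with p130 folds of 10.2 to 15.3 (WT) and 11.7 to 20.2 (KO). Bard1 and Prkdc also overlapped between p130 genotypes, but not with LIN54, where Prkdc had folds of 6.50 to 9.40 (WT) and 11.6 to 15.8 (KO). Both thus had KO above WT with LIN54, as did 46.1% of the genes with a peak in every LIN54 library.

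Msh3, a mismatch repair gene that acts on small loops, had a strong STAG2 signal in WT, with folds of 12.3 to 14.0 (WT) and 3.37 to 3.65 (KO). It thus had the direction of Msh6 with this antibody, as did 54.4% of the genes with a peak in every STAG2 library. Its LIN54 folds were 4.03 to 9.45 (WT) and 7.81 to 7.97 (KO), which overlapped. Rpa3, the small subunit beside RPA1 and RPA2, had LIN54 folds of 3.54 to 4.17 (WT) and 5.49 to 8.10 (KO). Rmi1, a BLM partner, had 4.67 to 7.75 and 9.26 to 15.1. In both, as in Rpa2, the KO values were above those of WT. That order held for 46.1% of the genes with a peak in every LIN54 library. Among fork protection genes, Zranb3, a fork remodelling enzyme gene, reached the highest LIN54 fold of the genes named from these lists, with 11.9 to 35.0 (WT) and 31.7 to 36.4 (KO), and Tonsl reached q 0.01 in 7 libraries.

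Among the other lists, homologous recombination was also represented by Xrcc3 and the checkpoint by Atrip and Rad17. Xrcc3 had LIN54 folds of 7.19 to 9.82 (WT) and 10.2 to 10.5 (KO). Atrip had no p130 peak in KO and 2 in WT. Of the Fanconi anaemia genes, Fance reached q 0.01 in 7 and Fancb, which is on X, in 6 libraries. Nhej1, of end joining, had STAG2 folds of 12.2 to 13.9 (WT) and 4.08 to 7.54 (KO), and p130 peaks in all 3 WT and no KO library. The p130 pattern held for 2.42% of all genes. The excision repair genes Ercc4 and Xpc reached q 0.01 in 8 and 7 libraries, with LIN54-WT folds of 12.8 to 15.8 at Ercc4 and 4.34 to 11.8 at Xpc.

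How alike the 8 genes were over the libraries varied from pair to pair. After subtracting the mean of all genes in each library, the correlation of log2 fold (0 where no peak) over the 15 libraries ranged from −0.28 (Exo1 and Blm) to 0.70 (Rpa2 and Mdc1) among the 28 pairs, with a median of 0.24. The genes most like the mean of the 8 by this measure were Ift80 (r = 0.91), an intraflagellar transport gene, Fbxo48 (0.89), Ppat and Paics (0.89 each), neighbouring purine synthesis genes that share an end, and Pars2 (0.88), a mitochondrial prolyl-tRNA synthetase gene. These 5 genes were picked as the highest of all, and all the r values are descriptions over 15 libraries that differ in antibody, depth and batch. No r for other pairs of genes is given here, so those among the 8 cannot be called low or high. A peak with its summit outside the window counts as 0, as for Brca1 in STAG2-WT replicate 2 and LIN54-WT replicate 3.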

How the data were processed

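CUT&RUN peak lists of 15 libraries were used, each as deposited. The submitters' processing notes name MACS2, Bowtie2, bcl2fastq and build mm10. Their versions and settings, and whether a control entered the peak calls, are not given in the sources used here. Each deposited peak has a fold (the authors' ratio of signal to background at the summit), a −log10 p and a −log10 q. The deposited score is derived from −log10 p and was not used. Peaks were called per library.

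Peaks outside chromosomes 1 to 19, X and Y were dropped. Fragments and background at a summit were solved from fold and p, and in a sample of 400 summits per library 100% gave whole fragments to within 0.0002 on the log10 scale. Gene ends are from RefSeq (GRCm38.p6), and strands, given for 79.9% of genes, from its start regions. Where several summits lay in the window, the one with the highest −log10 p was taken. A peak at q 0.01 has a −log10 q of at least 2. Folds are the authors' values within 1 list and were not tested between genotypes. The presence of a peak was tested per antibody by a two-sided exact permutation test over libraries, with Benjamini-Hochberg adjustment over 21887 genes, in code tested on simulated data. Beyond the 8 genes, up to 2 genes per list were named by the most libraries at q 0.01, ties by the higher median fold (1 such gene is not reported here), and the 5 genes most like the mean of the 8 over the libraries. Such likeness was Pearson's r of log2 fold, computed here from the deposited folds.

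The 8 genes, the 9 lists and the motifs were chosen with earlier results of these data known. Alternatives were −log10 q of at least 2 or 5, windows of 250 and 1000 bp, any base of a peak as the criterion, the 5′ end alone, batch 3 alone, leaving out each library, and the replicate number as a block. Leaving out libraries at q 0.01 was added after seeing the data. The tools were pandas 2.3.3 and SciPy 1.17.1 with NumPy 2.4.6 in Python 3.11.15, and Matplotlib 3.10.9 for plots.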

Additional observations from a re-analysis of the deposited data

Results flagged for a closer look

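Msh6 went in opposite directions with 2 antibodies at q 0.01. Coded as 1 where every KO and no WT library had a peak and as -1 where every WT and no KO library did, the STAG2 value was -1 and the LIN54 value was 1. Over all protein-coding genes, 151 (0.69%) had opposite values with these antibodies. Each direction of Msh6 was the more frequent one of its antibody. For STAG2, 6.19% of all genes had -1 and 0.0320% had 1. For LIN54, 3.99% had 1 and 0.0183% had -1. The difference between the antibodies was not tested, and both rest on few fragments per summit (6 to 15). The groups hold 2 or 3 libraries each, too few to look for a library that stands far from the rest of its group.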

How the results depend on the processing

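The counts of the 8 genes occupied in every library of a group depended most on the q threshold. At −log10 q of at least 2, STAG2 gave 0 in KO and 4 in WT alone, LIN54 gave 1 in WT, 4 in KO and 1 in KO alone, and p130 gave 1 in WT, 2 in KO and 0 in KO alone. At 5, STAG2 gave 0 in WT and 0 in KO, LIN54 gave 1 in WT, 3 in KO and 1 in KO alone, and p130 gave 1 in WT, 1 in KO and 0 in KO alone. With a window of 250 bp, STAG2 gave 3 in KO and 1 in WT alone, LIN54 gave 5 in KO and 1 in KO alone, and p130 gave 0 in KO alone. With 1000 bp, with any base of a peak and at the 5′ end alone, p130 gave 0 in KO alone, and at the 5′ end LIN54 gave 1 in KO alone. Exo1 has no strand and is not counted at the 5′ end. Shares of all genes at −log10 q of at least 2 are given above. At the other settings of this paragraph that share is not given here, so these counts cannot be set against all genes.

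Leaving out each library in turn gave, for STAG2, 6 to 8 in WT, 6 to 7 in KO, 0 to 1 in WT alone and 0 to 2 in KO alone. For LIN54 it gave 3 to 5 in WT, 8 in KO and 0 to 2 in KO alone, and for p130 5 to 7 in WT, 8 in KO and 1 in KO alone. The cause of these moves was not tested, and the share of all genes with a library left out is not given here.

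With the replicate number as a block, the smallest exact permutation p was 0.5 for STAG2 and LIN54 and 0.25 for p130, and 0 genes passed in each, as without it. The labels do not say whether same-numbered libraries were paired. The correlation of deviations between same-numbered WT and KO libraries was 0.04 for STAG2, 0.01 for LIN54 and −0.02 to 0.01 for p130. With so few libraries per group, these values cannot settle whether they were paired. Most summits of Exo1, Msh6, Blm, Rpa1, Timeless, Rpa2 and Brca1 hold under 15 fragments, and the part of depth in their calls was not tested.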
